A study of Sus scrofa with 6 samples.

Results

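Ribosomal proteins of the cytosol were examined in the cerebral cortex of pig embryos after (E80) and before (E60) the folds of the cortex appear. A gene was taken as a member when a probe set carried exactly 1 symbol of the pattern RPL or RPS followed by a number (with the letters A, X or L where the name has them), or RPLP0 to RPLP2, or RPSA. This gave 63 genes, read by 95 probe sets, of 6765 genes and 23999 probe sets tested in all. Where a gene had several probe sets, the one with the highest mean signal stands for it. The members were 34 proteins of the large subunit (60S), 3 of them the P proteins of its stalk, 24 of the small subunit (40S) and 5 paralogs, which are RPL7L1, RPL22L1, RPL26L1, RPL36AL and RPS27L. No sequence is printed, since none of the proteins, promoters or probes was in the tables used here.

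The ribosome translates every mRNA of a cell. Its small subunit holds the mRNA and decodes it, and its large subunit joins the amino acids and lets the new chain leave through a tunnel. Both are built in the nucleolus from ribosomal RNA and a nearly fixed set of proteins, most of them present once per ribosome. Most vertebrate mRNAs of ribosomal proteins begin with a run of pyrimidines (a terminal oligopyrimidine tract), through which the mTOR pathway sets how well they are translated. In the developing cortex the demand for ribosomes is known to be high in dividing progenitors and in neurons that grow axons. An array measures the amount of the mRNA, not its translation.

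The samples were total RNA of cortical tissue from 3 porcine embryos at embryonic day 80 (replicates 1, 2 and 3 of E80) and 3 at embryonic day 60 (replicates 1, 2 and 3 of E60), each on its own Affymetrix Pig Genome Array. The labels name no treatment or genetic change, and they do not say which litter an embryo came from, so litter and day cannot be told apart. The value of a probe set is a MAS5 signal, a brightness that rises with the amount of mRNA but also depends on the probes, so signals of different genes were not compared as amounts. Differences are log2 signals at E80 minus those at E60, and the words risen and fallen are kept for an adjusted p under 0.05 in limma over all 23999 probe sets.

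The tissue carried neuronal mRNA on all arrays. The 6 measured of 16 listed genes of cortical neurons had a summed signal of 14582 to 14991 at E80, against 12147 to 13016 at E60. Transthyretin (TTR), which the choroid plexus makes, had a signal of 4475 on E80 replicate 3 and 6.25 and 15.1 on the other E80 arrays, against 1.47 to 3.70 at E60. Without that array the results on the members given next were nearly the same (median log2 difference 0.08, with 49 of 63 above 0). Of the 13 measured genes of cycling cells 4 had fallen (summed signal 899 to 1102 at E80, against 1564 to 1702 at E60), and of the 9 of astrocytes 4 had risen (6917 to 10064 at E80, against 4474 to 5069 at E60). Their part in the results was not tested. In such bulk tissue, fewer cells of a type and less RNA per cell cannot be told apart.

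None of the 63 genes had risen and none had fallen at E80. Over all probe sets limma called 0.933% risen and 1.01% fallen. At an unadjusted p under 0.05 in limma, 1 of the 63 was lower (RPL30, described further down) and none was higher. Of all 23999 probe sets, 2599 were lower and 1709 higher at that level. The count of members at that level, in either direction, was 4 after quantile normalization. It was 8 after each array was centred on its median and 15 without E60 replicate 3. The smallest adjusted p was that of RPL30 (0.0704 from limma). The log2 difference was above 0 in 50 genes and below 0 in 13, with a median of 0.08, beside a median of -0.05 over all probe sets. The sign of this median depended on the scaling between arrays. After quantile normalization it was -0.04 with 20 of 63 above 0 (all probe sets -0.01), and after each array was centred on its median it was 0.19 with 57 above 0 (all probe sets 0.06).

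**Figure D1:**
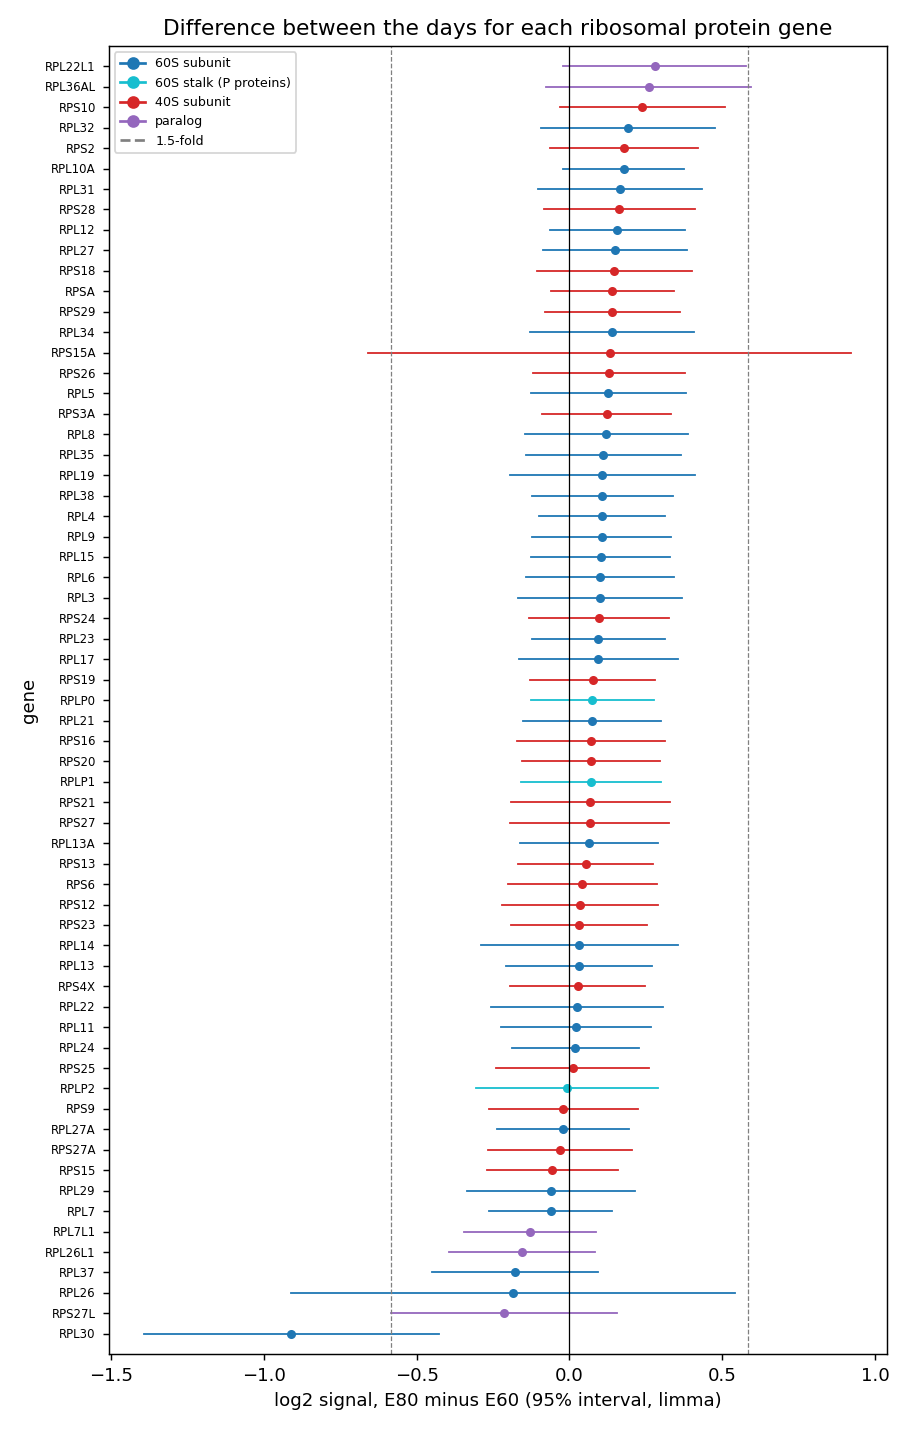
Log2 signal at E80 minus E60 (horizontal axis) for the brightest probe set of each of the 63 genes (vertical axis), with the 95% interval from limma and colours for the subunits. Dashed lines mark a 1.5-fold difference in either direction. All intervals but that of RPL30 include 0, and 59 of 63 lie within the dashed lines.

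In the deposited scaling the differences of the bright genes had narrow intervals. For 53 genes the mean signal over the arrays was 2000 or more, and each of their 95% intervals lay within 1.5-fold in both directions (limma, standard errors 0.09 to 0.14 on the log2 scale). The lowest bound among them was a fold of 0.793 and the highest a fold of 1.42. After median centring 49 of the 53 lay within 1.5-fold, and the upper bounds of RPS10, RPL32, RPS2 and RPL31 lay past it (up to a fold of 1.58). Those of RPS10 and RPL32 also did so without E80 replicate 1 or without the intensity trend, and that of RPS10 without E60 replicate 3. Of the 10 dimmer genes, 6 had an interval within 1.5-fold. The 4 others were RPL30, RPL26, RPS15A and, with an upper bound only just past the limit, RPL36AL. The level of 2000 was chosen after the signals were seen. The 53 genes were among the brightest of all probe sets, with RPL3, the dimmest of them, at the percentile 99.2. The highest signal of any probe set was 4510 to 5781 on the 6 arrays. Whether signals near the top of this range make differences look smaller was not tested.

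Most of the genes deviated together from array to array, in a pattern that cut across the days. On the log2 scale, the median deviation of the 63 genes from their own E60 mean was -0.02 on E80 replicate 1, 0.18 on E80 replicate 2 and 0.07 on E80 replicate 3, against -0.05, -0.11 and 0.15 on E60 replicates 1, 2 and 3. E80 replicate 2 was thus high and so was E60 replicate 3, and the days overlapped. In 56 of 63 genes E80 replicate 2 was the highest of its day, in 56 E60 replicate 3 was the highest of its day, and in 51 both held.

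Other bright probe sets followed the same arrays in part. Among the 177 probe sets with a mean signal of 2000 or more that were not members, both arrays were the highest of their day in 100 (56.5%, against 81.0% of the members), and over all probe sets in 12.2%. The arrays were picked from the members' own values, which favours the members here, so no conclusion is drawn from their higher share. The 63 members also include 10 dimmer genes. These 177 had a median log2 difference of 0.13, and the 53 members of that level one of 0.10. Many of the 177 carry no name in the annotation (96 have exactly 1 symbol), so ribosomal proteins may be among them. The part of the MAS5 scaling in this shared movement was not tested.

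**Figure D2:**
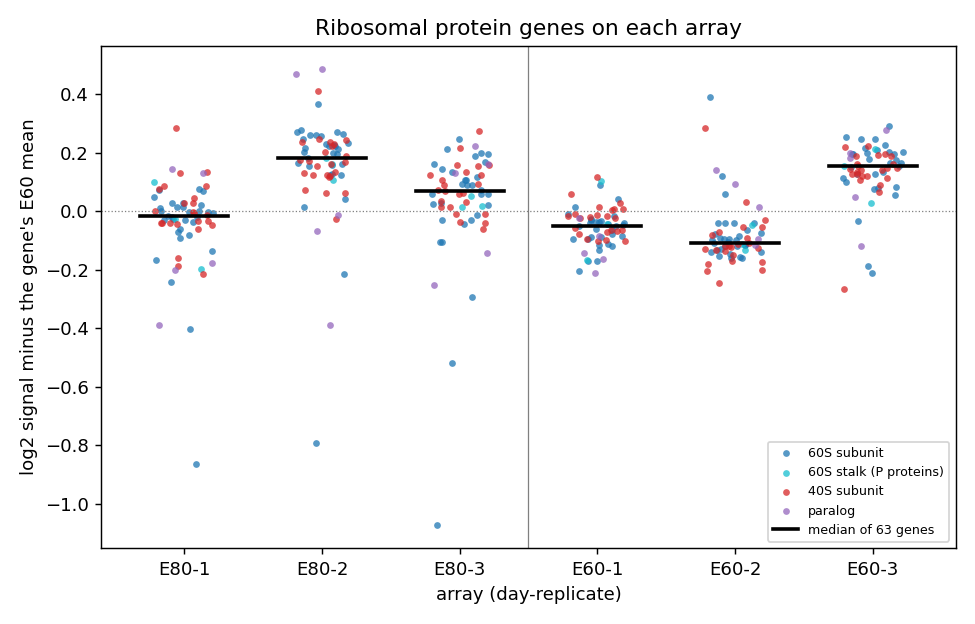
Log2 signal minus the gene's own E60 mean (vertical axis) on each of the 6 arrays (horizontal axis, E80 on the left) for the 63 genes, each point being 1 gene and each bar the median of an array. The medians of E80 replicate 2 (0.18) and E60 replicate 3 (0.15) are the highest of their days. The lowest point on each E80 array is RPL30.

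Of the 63 genes, 62 overlapped between the days, and RPL30 lay lower on all E80 arrays. Over all probe sets 9.25% lay entirely above at E80 and 14.4% entirely below. Among the 177 other bright probe sets, 35.6% lay entirely above. The median SD between arrays of 1 day was 0.14 on the log2 scale for the members, 0.10 for the other bright probe sets and 0.27 over all probe sets. When the median deviation of the 63 genes was subtracted from each array, the median SD of the members was 0.06, and the SD was smaller than before in 56 of 63. The subtracted median came from these same genes, so a smaller spread was favoured in advance. The other probe sets were not centred on a median of their own, so their SDs are not comparable with 0.06. RPLP1 followed the others most closely (SD 0.01 after the subtraction). On that relative scale RPL22L1, RPS10, RPS2, RPL10A, RPS28 and RPL9 lay entirely above at E80 (relative log2 differences 0.20, 0.16, 0.10, 0.10, 0.08 and 0.03), and RPL30, RPL26L1, RPL7, RPS15 and RPL27A entirely below (-0.99, -0.23, -0.14, -0.14 and -0.10). These were 6 and 5 of the 63, while over all probe sets on that scale 5.38% lay entirely above and 14.8% entirely below. The scale was chosen after the data were seen, and none of these passed limma on it, where the smallest adjusted p among the members was 0.122.

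In the large subunit, the 30 bright genes had log2 differences of -0.06 to 0.19 with a median of 0.10. RPL32 had signals of 3607, 4230 and 4136 at E80, against 3097, 3308 and 4134 at E60, a log2 difference of 0.19 (limma, standard error 0.12, adjusted p = 0.466). RPL10A, part of the flexible arm beside the exit site of the tRNA, had 2438, 2798 and 2648 at E80, against 2252, 2255 and 2459 at E60, a difference of 0.18 (standard error 0.09, adjusted p = 0.329). For RPL10A only the highest E60 array reached into the range of E80. RPL31, at the mouth of the exit tunnel, had 4058, 4761 and 4612 at E80, against 3731, 3631 and 4656 at E60, and its second bright probe set gave 0.21, beside 0.17 on the brightest.

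RPL5 and RPL11, which carry the 5S ribosomal RNA into the ribosome and can bind the p53 regulator MDM2 when free, had log2 differences of 0.13 and 0.02 (adjusted p = 0.599 and 0.941 from limma). RPL5 had signals of 3000, 3522 and 3132 at E80 and 2786, 2706 and 3371 at E60. RPL11 had 3365, 3717 and 3303 at E80 and 3148, 3199 and 3918 at E60. E60 replicate 3 lay within the range of E80 for RPL5 and above all E80 arrays for RPL11. RPL4, whose loop lines the exit tunnel, had one of the narrowest spreads, with 2960, 3481 and 3161 at E80 and 2896, 2881 and 3125 at E60 (log2 difference 0.11). RPL14 had one of the widest, with 2490, 3115 and 2417 at E80 and 2311, 2450 and 3099 at E60 (0.03).

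The lowest differences of the bright large subunit genes were those of RPL7 and RPL29, a small protein that mice can live without. RPL7 had signals of 2750, 3119 and 3022 at E80, against 3175, 2886 and 3211 at E60, a log2 difference of -0.06 (adjusted p = 0.767 from limma). RPL29 had 2105, 2789 and 2312 at E80, against 2416, 2330 and 2732 at E60 (-0.06, adjusted p = 0.841). Both overlapped. RPL37, a zinc-binding protein read by a dimmer probe set, had 826, 725 and 687 at E80, against 896, 914 and 727 at E60 (-0.18, standard error 0.12, adjusted p = 0.483). Unlike most members it was lowest on E60 replicate 3 within its day.

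The stalk proteins recruit the translation factors that hydrolyse GTP. RPLP0, their anchor on the ribosome, had signals of 4784, 4798 and 4520 at E80 and 4794, 4070 and 4543 at E60, a log2 difference of 0.08 (limma, standard error 0.09, adjusted p = 0.707). RPLP1 had 2424, 2802 and 2557 at E80 and 2395, 2284 and 2745 at E60 (0.07). RPLP2, its partner in the dimers of the stalk, had 1303, 1674 and 1511 at E80 and 1331, 1448 and 1735 at E60 (-0.01). The days overlapped in all 3.

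In the small subunit, the 23 bright genes had log2 differences of -0.06 to 0.24 with a median of 0.07. RPS10, a protein of the head of the subunit that is mutated in some families with Diamond-Blackfan anaemia, had the highest, with signals of 3357, 4201 and 3669 at E80, against 2995, 2921 and 3598 at E60 (0.24, standard error 0.12, adjusted p = 0.333 from limma). E60 replicate 3 alone lay within the range of E80. RPS2, at the channel where the mRNA enters, had 4530, 4879 and 4604 at E80, against 4091, 3639 and 4705 at E60 (0.18, adjusted p = 0.420). RPS28, which lies near the exit of the mRNA, had 3271, 3653 and 3434 at E80, against 3033, 2731 and 3522 at E60 (0.16, adjusted p = 0.475). Its probe set has a suffix that marks probes shared by several transcripts.

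RPS6, the substrate of the S6 kinases downstream of mTOR, had signals of 3578, 3998 and 3480 at E80, against 3596, 3173 and 3995 at E60, a log2 difference of 0.04 (adjusted p = 0.877 from limma). RPSA, which is also known as a receptor for laminin, had 3537, 3790 and 3370 at E80, against 3093, 3114 and 3497 at E60 (0.14, standard error 0.09, adjusted p = 0.450). For RPSA only E60 replicate 3 reached the E80 arrays. RPS27A, made as a fusion with ubiquitin, had 4136, 4080 and 3978 at E80, against 4325, 3601 and 4597 at E60 (-0.03). Below 0 among the bright small subunit genes were RPS27A, RPS15 (-0.06) and RPS9 (-0.02).

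Several ribosomal protein genes are common reference genes for qRT-PCR, and none of those named here had risen or fallen. RPL13A had signals of 4426, 4789 and 4572 at E80 and 4248, 4019 and 4967 at E60, a log2 difference of 0.06 (95% interval -0.16 to 0.29, limma). RPS18 had 5010, 5604 and 5180 at E80 and 4446, 4351 and 5541 at E60 (0.15, 95% interval -0.11 to 0.40). The intervals of RPLP0 (-0.13 to 0.28) and RPL4 (-0.10 to 0.31) also included 0. After quantile normalization the sign turned in RPL13A (-0.08), RPLP0 (-0.09) and RPS18 (-0.00), and RPL4 had 0.00. Of the 12 measured reference genes with other functions, 9 had a difference above 0 with a median of 0.18. HPRT1, of purine salvage, was the only one called, with 951, 994 and 893 at E80, against 649, 724 and 637 at E60 (0.50, standard error 0.09, adjusted p = 0.0384 from limma), and it lost the call without any 1 of the 6 arrays (adjusted p 0.0678 to 0.146). ACTB and GAPDH had 0.13 and 0.20 (adjusted p = 0.407 and 0.292). In the same scaling RPS18 lay between ACTB and GAPDH, and RPL13A, RPLP0 and RPL4 lay below both. The 3 reference genes of other functions below 0 were B2M (-0.02), PSMB6 (-0.06) and TFRC (-0.36). The differences of B2M and PSMB6 were smaller in size than those of RPL13A, RPLP0, RPL4 and RPS18. The genes with other functions are not given here after quantile normalization.

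The 5 paralogs had log2 differences on both sides of 0, with a median of -0.13, and none passed. RPL22L1, whose level in mouse cells is held down by RPL22, had the highest difference of all members, with signals of 988, 1237 and 1045 at E80, against 772, 902 and 1026 at E60 (0.28, standard error 0.13, adjusted p = 0.309 from limma). RPL22 itself had 2554, 2992 and 2657 at E80, against 2522, 2399 and 3186 at E60 (0.02). E60 replicate 3 of RPL22L1 lay just above the lowest E80 array, so the days overlapped. The log2 ratio of RPL22L1 to RPL22 within an array was -1.37, -1.27 and -1.35 at E80, against -1.71, -1.41 and -1.63 at E60, so that all 3 E80 arrays lay above all 3 E60 arrays. Its change was 0.25 (SD 0.05 at E80 and 0.15 at E60), with an exact two-sided permutation p of 0.1, the smallest that 3 against 3 arrays can give, and of 0.4 adjusted over the 4 pairs with a measured partner.

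The other pairs did not separate the days. The ratio of RPS27L, a p53 target in human cells, to RPS27 changed by -0.28 (exact permutation test, adjusted p = 0.6). RPS27L had signals of 254, 254 and 363 at E80, against 313, 311 and 377 at E60, so replicate 3 was the high one on both days. Its only probe set has the same suffix as that of RPS28, which marks probes shared by several transcripts. The ratio of RPL7L1 to RPL7 changed by -0.07 and that of RPL26L1 to RPL26 by 0.03 (adjusted p = 0.9 for both, exact permutation test), the last resting on a dim probe set of RPL26. RPL36AL, whose partner RPL36A was not measured here, had 929, 1188 and 949 at E80, against 757, 784 and 1028 at E60 (0.26, standard error 0.15, adjusted p = 0.398 from limma). RPL7L1 had 839, 907 and 861 at E80, against 934, 1047 and 874 at E60 (-0.13), and RPL26L1 had 633, 720 and 610 at E80, against 659, 775 and 752 at E60 (-0.16).

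For 3 members the only probe set was dimmer than the median of all probe sets (61.6), so that their mRNA may be poorly read. RPL30, which in yeast also represses the splicing of its own transcript, had signals of 25.40, 26.71 and 21.97 at E80, against 45.4, 48.2 and 45.2 at E60. All E80 arrays lay far below all E60 arrays. The log2 difference was -0.91 (standard error 0.21, 95% interval -1.39 to -0.43, adjusted p = 0.0704 from limma), which did not pass. With 32 added to each signal the difference was -0.47, so its size rests on how low signals are treated. Over the alternatives its adjusted p was 0.0410 to 0.240, and it passed with array weights and when only the brightest 66% of probe sets were tested (0.0442). RPL26 had 24.8, 42.1 and 22.8 at E80, against 28.4, 42.9 and 28.7 at E60, and RPS15A had 10.7 to 12.8 at E80, against 8.69 to 12.7 at E60. The days overlapped in both.

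Of the 63 genes, 24 had more than 1 probe set, which gave 32 further probe sets. In 8 of these genes all probe sets had the same sign, and in 16 they had both signs. Only 4 further probe sets were as bright as 2000, those of RPL27, RPL31 and RPS18 (a pair), and their log2 differences of 0.07 to 0.21 were near those of the brightest probe set of the gene. That of RPL27 and 1 of RPS18 have the suffix of shared probes described for RPS28. That of RPL31 and the other of RPS18 share the stem of their name with the brightest probe set. They may thus not be separate readings. The dim ones spread widely. Of the 13 further probe sets below the median signal, 10 had a difference below 0, with a median of -0.36, beside a median of -0.08 over all probe sets below the median signal. A difference under -0.5 was found in 6 of these 13, while 21.3% of all probe sets below the median signal had one.

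Of the 32 further probe sets 2 passed the test, and both had fallen. Over all probe sets 1.01% had fallen and 0.933% had risen. The third probe set of RPL23, a protein that can bind MDM2, had signals of 77.1, 87.3 and 93.8 at E80, against 164, 158 and 171 at E60, which is -0.94 on the log2 scale, with an adjusted p of 0.0187 from limma and a standard error of 0.13. The brightest probe set of RPL23 had 2718, 3182 and 3005 at E80, against 2754, 2581 and 2999 at E60 (0.10, adjusted p = 0.654), and the second one -0.16 (adjusted p = 0.680). The second probe set of RPL7 had 9.78, 11.1 and 11.6 at E80, against 35.0, 41.5 and 35.5 at E60 (-1.79, standard error 0.26, adjusted p = 0.0226 from limma), beside -0.06 on the brightest. With 32 added to each signal the difference of this probe set was -0.69, and that of RPL23 was -0.73. In both genes the fall was seen on a probe set with a lower signal (a mean of 125 for RPL23, above the median of all probe sets, and of 24.1 for RPL7) and not on the brightest one. Which transcripts these probe sets read is not given in the annotation used here.

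Of the 32 further probe sets, 6 lay entirely below at E80 and none entirely above, beside 14.4% and 9.25% of all probe sets. These 6 were the third of RPL23 and of RPL27 and the second of RPL7, RPS13, RPL9 and RPLP1. Those of RPL27, RPL9 and RPLP1 had log2 differences of -0.56, -0.38 and -0.19. The second probe set of RPS13, which lies on the face of the small subunit towards the large one, was thus also lower on all E80 arrays but did not pass. Its signals were 8.59, 6.83 and 9.66 at E80, against 22.4, 18.8 and 23.0 at E60 (-1.37, standard error 0.32, adjusted p = 0.0747 from limma). With 32 added to each signal it passed, at a log2 difference of -0.40 (adjusted p = 0.0455 from limma). On its brightest probe set RPS13 had 3202, 3615 and 3192 at E80, against 3229, 2931 and 3494 at E60 (0.05). The days did not overlap on the dim probe set and overlapped on the bright one. With the mean log2 signal of all its probe sets taken per gene, RPL7 and RPS13 had fallen (-0.92 and -0.66, adjusted p = 0.0157 and 0.0360 from limma). That mean gives a dim probe set the same weight as a bright one, and the brightest ones alone gave -0.06 and 0.05. The fall on RPL23 passed on that 1 probe set alone. The second probe set of RPL7 did not pass without E80 replicate 1, without any of the 3 E60 replicates or without the intensity trend (adjusted p 0.0506 to 0.129), and that of RPL23 not without E80 replicate 1, E60 replicate 1 or E60 replicate 2 or without the trend (0.0859 to 0.125).

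**Figure D3:**
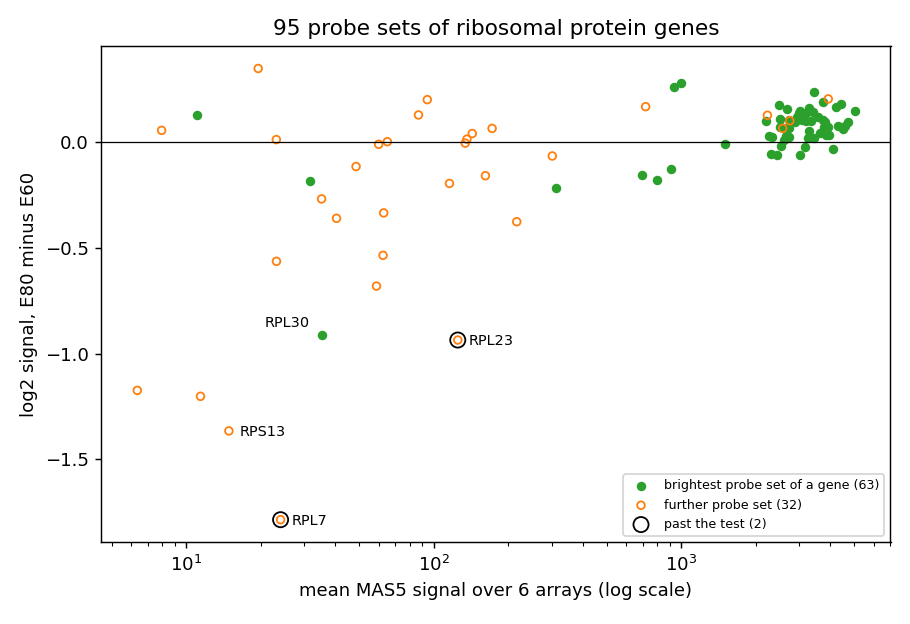
Log2 signal at E80 minus E60 (vertical axis) against the mean MAS5 signal over the 6 arrays (horizontal axis, log scale) for all 95 probe sets. Filled points are the brightest probe set of each gene and open points the further ones. Probe sets over 2000 lie between -0.06 and 0.24, and the pair past the test (circled, RPL7 and RPL23) have mean signals of 24.1 and 125.

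**Figure D4:**
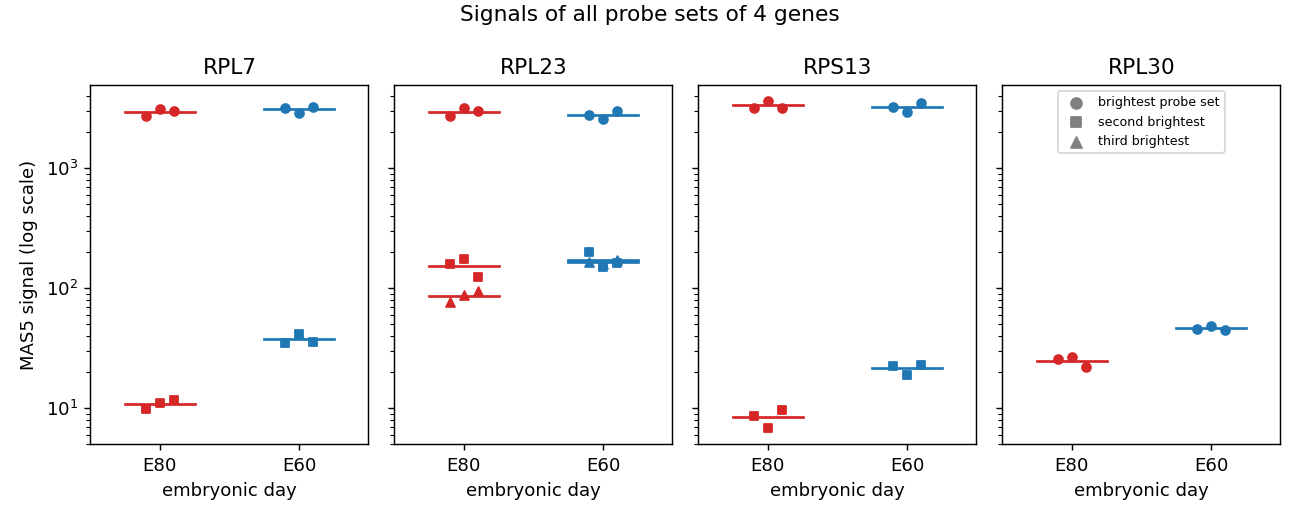
MAS5 signal (vertical axis, log scale) at E80 (red, left) and E60 (blue, right) for every probe set of RPL7, RPL23, RPS13 and RPL30, with 1 point per array and bars for the means of 3 arrays. The bright probe sets near 3000 overlap between the days. The second of RPL7 and of RPS13, the third of RPL23 and the only one of RPL30 lie lower on all E80 arrays.

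Other genes of ribosome making and translation were taken from lists, and none of them had risen or fallen. FAU, which makes a ribosomal protein of the small subunit as a fusion with a ubiquitin-like protein, had signals of 3673, 4055 and 3863 at E80, against 3337, 3260 and 3965 at E60 (0.14, adjusted p = 0.513 from limma). Of 54 listed factors of ribosome biogenesis 41 were measured, with 10 above 0 and 31 below 0 and a median log2 difference of -0.12. The lowest adjusted p were those of GNL2, a nucleolar GTPase of the large subunit (-0.40, adjusted p = 0.144), RRP9, a protein of the U3 particle (-0.51, adjusted p = 0.154), and GAR1, of the particles that make pseudouridine (-0.65, adjusted p = 0.199). Each of these lay lower on all E80 arrays. Of the 41 in all, 7 lay entirely below and 3 entirely above at E80, beside 14.4% and 9.25% of all probe sets.

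Of 12 measured subunits and factors of RNA polymerase I and of the 5S genes, 6 were above 0 and 6 below 0. POLR2L, a small subunit shared by the polymerases, had signals of 374, 402 and 480 at E80, against 260, 264 and 318 at E60 (0.58, adjusted p = 0.0676 from limma). TAF1D, a factor of the ribosomal RNA promoter, had 115, 125 and 88.4 at E80, against 164, 166 and 172 at E60 (-0.63, adjusted p = 0.0807). Both kept the days apart without passing. Thus 1 of the 12 lay entirely above and 1 entirely below at E80, beside 9.25% and 14.4% of all probe sets. Among 10 measured regulators, TSC1 and TSC2, which together restrain mTOR, had -0.85 and -0.31 (adjusted p = 0.185 and 0.229 from limma) and lay lower on all E80 arrays, TSC1 on a probe set below the median signal. RHEB, the GTPase they act on, had 0.17 (adjusted p = 0.326) and EIF4E, which binds the cap of mRNAs, had 0.24 (adjusted p = 0.387), and both lay higher on all E80 arrays. Thus 2 of the 10 lay entirely below and 2 entirely above, beside 14.4% and 9.25% of all probe sets.

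Translation factors and other genes whose mRNAs begin with the same pyrimidine tract also held none past the test. Of 18 measured, 11 were above 0 and 7 below 0, with a median log2 difference of 0.06. The poly(A)-binding protein PABPC1 had 0.20 (adjusted p = 0.380 from limma) and the elongation factor subunit EEF1B2 0.11 (adjusted p = 0.570). VIM, the intermediate filament of radial glia, whose mRNA has such a tract, had -0.38 (adjusted p = 0.179) and was lower on all E80 arrays. It was the only 1 of the 18 that did not overlap, beside 14.4% of all probe sets entirely below. For the mitochondrial ribosome, which is built from a separate set of proteins, 38 of 59 measured genes were above 0 and 21 below 0, with a median of 0.05 and a range of -0.47 to 0.41. MRPL51 had 0.41 (adjusted p = 0.0979) and MRPL10 -0.47 (adjusted p = 0.144), the lowest adjusted p of that list.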

How the data were processed

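Intensity values were analysed as the authors deposited them, which are MAS5 signals on a linear scale, one for each probe set of each array. MAS5 sets each probe beside a mismatched one and scales whole arrays, and the trimmed mean of the signals (2% left out at each end) was 150.02 on every array. The sources used here do not give the version of the tool or its detection calls. Of 24123 probe sets, 124 controls were left out. Names came from the annotation of the platform (10069 probe sets with 1 symbol, 198 with several, 13732 with none). The 95 probe sets of the members matched RefSeq by gene ID, all with the same symbol, and 8 probe sets that share a ribosomal protein symbol with another gene were not used.

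Log2 signals without a pseudocount were fitted in limma 3.58.1 (R 4.3.3), with variances moderated along an intensity trend, as 3 arrays of E80 against 3 of E60 with no covariate and Benjamini-Hochberg adjustment over 23999 probe sets. The code was tested on simulated arrays with known changes. Ratios of paralogs were compared with exact permutation tests. Members, lists and the rule for named genes were chosen with earlier results of these data known. The rule took the 8 highest and 8 lowest differences, the 5 widest and 5 narrowest spreads, paralogs with partners, members of set roles, FAU and, from the lists, genes that passed and up to 4 with the lowest p. Genes outside it, such as EIF4E, ACTB, B2M, PSMB6 and TFRC, were chosen after their values were seen. So were those named on the relative scale and the further probe sets named singly. The 3 arrays per day limit the precision. The p-values set a difference against the spread between these embryos, which limma moderates with that of other probe sets. Alternatives were other scalings, 32 added to each signal, a filter on dim probe sets, other variance models, array weights, other probe set choices and leaving out each array.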

Additional observations from a re-analysis of the deposited data

How the results depend on the processing

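No paired analysis was possible because the labels give no number that links an embryo of E80 with one of E60. Over the alternatives the median log2 difference of the 63 genes was -0.04 to 0.19, and 20 (quantile normalization) to 57 (median centring) were above 0, with 30 after centring on the ribosomal proteins, a setting added after the data were seen. Without single arrays it was 0.02 to 0.15 with 39 to 55 above 0, lowest without E60 replicate 2 and highest without E60 replicate 3. No member had risen in any setting. The number fallen was 1 for the brightest 66% of probe sets and with array weights (RPL30 in both), 1 with the second brightest probe set (RPL7), 2 with the mean of all probe sets per gene, and 0 in the other settings, those without single arrays included. Over all probe sets 224 had risen and 243 had fallen. The counts were 349 and 406 for the brightest 66%, 520 and 649 with array weights, 0 and 0 without the intensity trend (3706 under an unadjusted p of 0.05), and 51 and 58 after centring on the ribosomal proteins. After median centring 311 had risen and 108 had fallen. Without single arrays 0 to 178 had risen and 1 to 189 fallen, with 0 and 1 without E80 replicate 1, E60 replicate 1 or E60 replicate 2. The ratio of RPL26L1 to RPL26 changed by -0.14 after quantile normalization, by -0.065 with 32 added and by -0.12 to 0.23 without single arrays, and that of RPL7L1 to RPL7 by -0.15 to 0.052, none past the test. Of 488 values of single genes under alternatives, 44 had another sign with no call in either fit, 17 lost their call (the probe sets of RPL7 and RPL23, and HPRT1), and 2 gained one (RPL30). The causes were not tested. Arrays carry no counting depth, and dim probe sets are read least precisely.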
